A study of Oryctolagus cuniculus with 24 samples.

Results

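The genes described are the ligands, receptors, antagonists and core regulators of the Wnt pathway in primary rabbit corneal keratocytes. They were taken by symbol from the gene count table: WNT ligands, the acyltransferase PORCN, FZD, LRP5, LRP6, ROR, LGR4 to LGR6 and KREMEN receptors, R-spondins (RSPO), DKK, SFRP, FRZB and WIF1 antagonists, AXIN, NKD, and the TCF7 family with LEF1. The symbols matched 58 of 23428 genes. Of the 58 genes, 56 had at least 1 count and 43 passed the filter on low counts and were tested. The 43 passed through the condition in which each was most abundant, so they are not a random sample of the 58.

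The study compared keratocytes, which live in the corneal stroma and make its matrix, in 3 culture conditions with 8 libraries each. First-passage primary cells were plated on glass coated with collagen and cultured for 6 days, with medium changes on days 1 and 3. The TGF-β1 condition received serum-free medium with TGF-β1 at 5 ng/mL from day 1, and the labels call it the myofibroblast condition. The FBS condition received serum-free medium on day 1 and DMEM with 10% fetal bovine serum from day 3, and is the fibroblast condition of the labels. The serum-free condition received serum-free medium at each change and is the keratocyte condition. Serum is thus not all that sets the FBS cells apart: their medium is DMEM and their exposure began 2 days later than that to TGF-β1. No genetic change was made in any condition, and the sources used here do not give the number of rabbits behind the cells.

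Wnt ligands are secreted lipid-modified proteins that bind Frizzled receptors together with LRP5 or LRP6, and so keep β-catenin from being degraded by a complex built on the Axin scaffolds. Stabilised β-catenin then works with TCF and LEF factors in the nucleus, while ligands such as WNT5A and WNT11 can signal without β-catenin through ROR receptors and the planar polarity and calcium branches. Secreted Dickkopf proteins block the LRP co-receptors, whereas SFRP proteins and WIF1 bind the ligands themselves, and in the cornea the pathway is known for its part in eye development and in wound repair.

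Total counts per library were 15410285 to 20911192 with TGF-β1, 15659561 to 22528261 with FBS and 17151397 to 21540864 in serum-free medium. Library names carry numbers from 5 to 12, and numbers 5 to 8 (replicates 1 to 4, set 1 below) stood apart from numbers 9 to 12 (replicates 5 to 8, set 2). The chi-square per gene between libraries of a condition (squared difference over counting variance, mean over tested genes) was 40.2 to 165 between sets. Within a set it was 3.33 to 20.5 with TGF-β1 and 7.06 to 30.1 in serum-free medium. With FBS, replicates 5 and 6 stood apart from 7 and 8 at 44.8 to 72.9, while replicates 1 and 2 (2.82), 3 and 4 (3.37) and 7 and 8 (3.04) were close. Whether replicates are separate cultures or animals is not stated in the labels, and p-values measure only the spread between these libraries, which may be technical, and 8 libraries may stand for fewer separate units. KERA (keratocan), a defining keratocyte transcript, lay at 253.0 to 390.0 CPM with TGF-β1, 129.8 to 371.8 CPM with FBS and 7534 to 10870 CPM in serum-free medium, where CPM is the count scaled to the library size after TMM normalisation. Of 6 keratocyte markers, 5 fell against serum-free medium with TGF-β1 and AQP1 rose, at a log2 fold change of 1.43. All 6 fell with FBS. ACTA2, the smooth muscle actin that marks myofibroblasts, lay at 115.0 to 402.7 CPM with TGF-β1, 247.4 to 722.0 CPM with FBS and 0.353 to 6.93 CPM in serum-free medium, so it was high in the FBS libraries too. Of 6 myofibroblast markers, 5 rose with TGF-β1 and TGFBI did not pass an adjusted p of 0.05. With FBS 5 rose and FN1 fell (log2 fold change -2.54). Between the treatments 3 of the 6 were higher with TGF-β1 than with FBS and 2 were lower in the edgeR test. The lower ones were ACTA2, at -1.05 (SE 0.37, adjusted p = 0.0127), and TGFBI, at -1.59 (SE 0.19, adjusted p = 4.68e-08). POSTN averaged 2460 CPM with TGF-β1, 50.1 CPM with FBS and 24.8 CPM in serum-free medium. Of 5 fibroblast markers, 3 rose and 2 fell with TGF-β1, and 1 rose and 4 fell with FBS. Among all genes 31.2% rose and 33.1% fell with TGF-β1, and 39.5% and 40.5% with FBS. With TGF-β1 against FBS 36.9% of all genes were higher and 36.4% lower.

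RNA of other cell types was looked for with marker lists. Of 7 corneal epithelium markers, KRT12 had no count in any library, EPCAM had 1 count, and the list summed to 0.716 to 2.77 CPM with TGF-β1, 4.11 to 6.06 CPM with FBS and 0.281 to 1.27 CPM in serum-free medium. TP63, the only 1 of them tested, averaged 1.255 CPM with TGF-β1, 4.49 CPM with FBS and 0.327 CPM in serum-free medium. It was higher in both treatments, with log2 fold changes of 1.92 with TGF-β1 and 3.76 with FBS. The 6 leukocyte markers summed to 250.7 to 368.5 CPM with TGF-β1, 148.8 to 227.1 CPM with FBS and 5.30 to 10.2 CPM in serum-free medium. LAPTM5 made up most of that sum in the treated cells, at a mean of 305.1 CPM with TGF-β1, 170.7 CPM with FBS and 4.01 CPM in serum-free medium. CD68, a macrophage marker, averaged 6.63 CPM with TGF-β1, 18.3 CPM with FBS and 2.35 CPM in serum-free medium, and was higher in both treatments, with log2 fold changes of 1.49 (SE 0.21, adjusted p = 1.07e-06) with TGF-β1 and 2.96 (SE 0.22, adjusted p = 1.65e-12) with FBS. The pan-leukocyte gene PTPRC never passed 0.353 CPM. CSF1R, the other leukocyte marker tested, averaged 0.834 CPM with TGF-β1, 0.495 CPM with FBS and 0.647 CPM in serum-free medium. Its edgeR changes did not pass, at 0.36 (adjusted p = 0.436) with TGF-β1 and -0.37 (adjusted p = 0.401) with FBS. AIF1 and CD163 averaged 0.136 CPM or less in each condition. The 5 vascular endothelial markers summed to 52.2 to 113.5 CPM with TGF-β1, 13.9 to 19.0 CPM with FBS and 246.5 to 367.8 CPM in serum-free medium, mostly KDR, with PECAM1 at 1.31 CPM or less. The 6 markers of glia and melanocytes summed to 2.87 to 7.28 CPM with TGF-β1, 1.80 to 3.26 CPM with FBS and 11.6 to 17.7 CPM in serum-free medium. Of 4 corneal endothelium markers ZP4 had no count, SLC4A11 averaged 0.823 CPM with TGF-β1, 6.93 CPM with FBS and 1.50 CPM in serum-free medium, and the sum, mostly COL8A2, was 2335 to 3148 CPM with TGF-β1, 367.8 to 416.0 CPM with FBS and 927.3 to 1254 CPM in serum-free medium. The part of these genes in the results below was not tested.

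With TGF-β1 the Wnt genes moved in both directions against serum-free medium: 16 of the 43 tested genes rose, 17 fell and 10 did not pass an adjusted p of 0.05 (edgeR quasi-likelihood test, adjusted over 13308 genes). WNT2, DKK3, SFRP4 and WNT11 were among the largest rises, and FRZB, AXIN2, LGR5 and FZD3 had the largest falls. Among all genes tested 31.2% rose and 33.1% fell, 64.3% in all, and 37.2% and 39.5% of the Wnt genes did. The median log2 fold change was -0.042 for the 43 genes and -0.030 for all genes, and the median size of change, without its sign, was 0.89 and 0.51. All 8 TGF-β1 libraries lay above all 8 serum-free libraries for 8 Wnt genes and below them for 7, where the shares of all genes were 17.3% and 16.5%. A change of at least 2-fold was called upward for 10 Wnt genes and downward for 9, against 10.9% and 15.2% of all genes. DKK1 is counted among the 16 and the 10, on 11 counts with TGF-β1 and 0 in serum-free medium. It passed the filter on low counts through its FBS libraries.

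With FBS most Wnt genes fell against serum-free medium: 25 of 43 were lower, 7 were higher and 11 did not pass. The genes with the largest falls were FRZB (9 counts over the FBS libraries), ROR1, WNT16 and NKD1. The 7 higher genes were DKK1, WNT2, LEF1, WIF1, FZD6, FZD5 and LGR4. Among all genes 40.5% fell and 39.5% rose, 80.0% in all, and 58.1% and 16.3% of the Wnt genes did. The median log2 fold change was -0.77 for the 43 genes and -0.042 for all genes. The libraries did not overlap, with FBS lower, for 18 Wnt genes and, with FBS higher, for 6, against 25.7% and 27.2% of all genes. At 2-fold or more 19 Wnt genes were lower and 6 higher, against 24.2% and 22.3% of all genes.

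Set directly against FBS, TGF-β1 gave higher levels of 27 Wnt genes and lower levels of 8, and 8 did not pass. Among all genes 36.9% were higher and 36.4% lower, 73.3% in all, and 62.8% and 18.6% of the Wnt genes were. The median log2 fold change was 0.92 for the 43 genes and 0.0069 for all genes. All TGF-β1 libraries were above all FBS libraries for 19 Wnt genes and below them for 5, against 22.4% and 23.8% of all genes. At 2-fold or more 21 were higher and 7 lower, against 18.5% and 17.6% of all genes. With libraries scaled to total counts only, the median of all genes moved to -0.17 for TGF-β1 against serum-free medium, 0.21 for FBS against serum-free medium and -0.39 for TGF-β1 against FBS. That scaling gave 23 higher and 12 lower Wnt genes between TGF-β1 and FBS, so that 65.7% of the called genes were higher, against 77.1% with TMM. Of all called genes it left 31.5% higher in that comparison (50.4% with TMM) and 37.5% higher for TGF-β1 against serum-free medium (48.5% with TMM). The comparisons with serum-free medium share its 8 libraries, so their values are given side by side for each gene and are not independent of each other. These are bulk libraries, in which fewer cells of a type and less RNA per cell cannot be told apart.

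**Figure D1:**
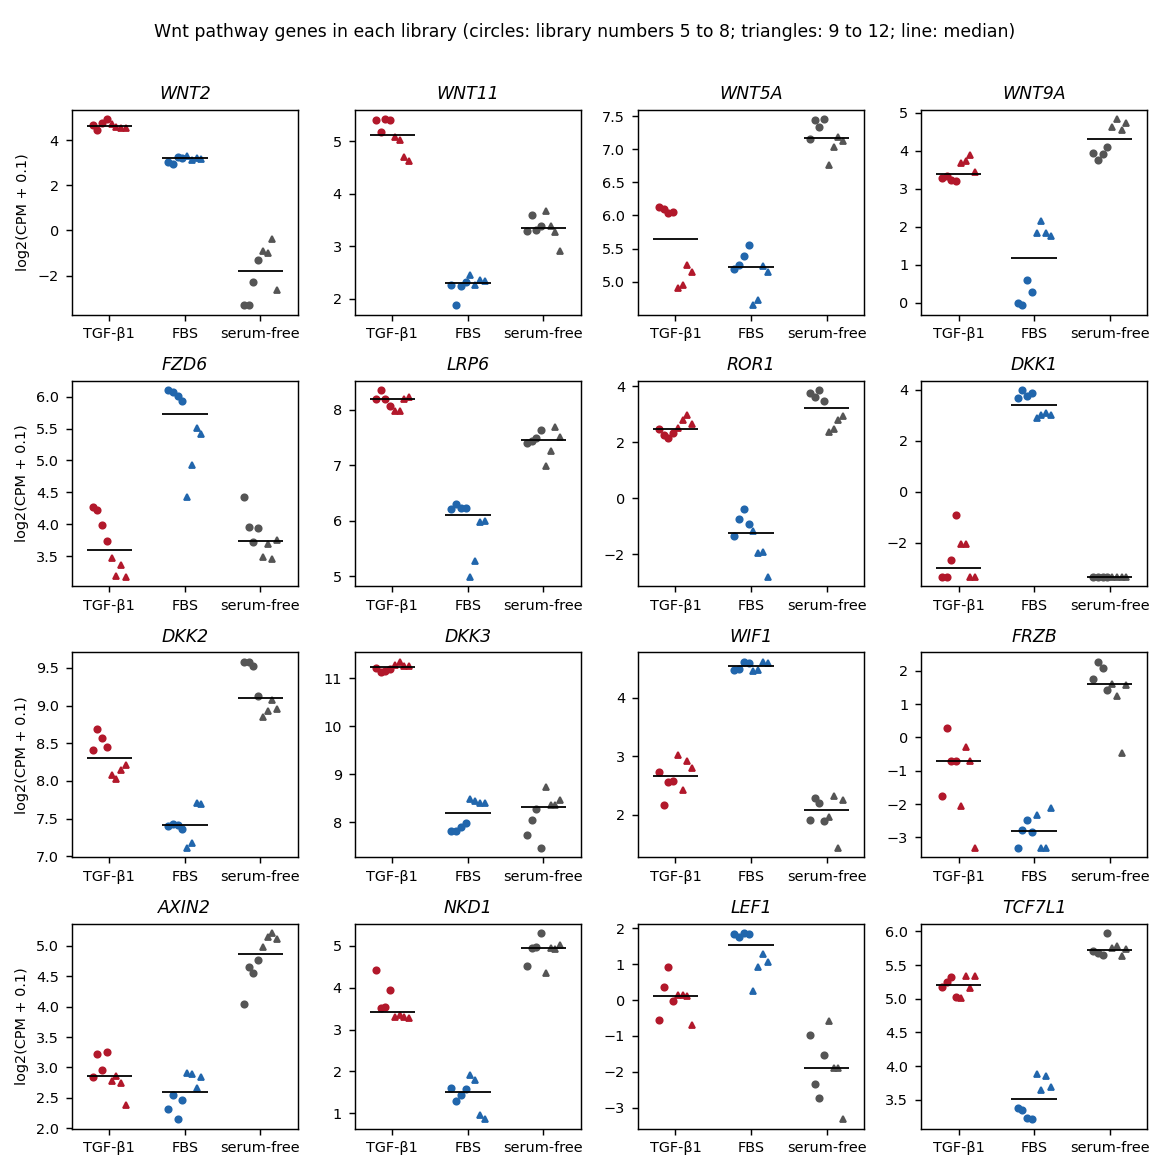
Level of 16 Wnt pathway genes in each library, as log2(CPM + 0.1) on separate vertical scales, with TGF-β1, FBS and serum-free libraries from left to right (8 each), circles for library numbers 5 to 8, triangles for 9 to 12 and a line at the median. WNT2 was at most 0.674 CPM in serum-free libraries and at least 7.70 CPM in all others, and DKK1 was at 7.27 CPM or more in FBS libraries and at most 0.438 CPM elsewhere.

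Of the 18 ligand genes 9 were tested. Against serum-free medium 4 rose and 4 fell with TGF-β1 (all genes 31.2% and 33.1%), while 1 rose and 7 fell with FBS (all genes 39.5% and 40.5%). WNT2, a ligand of the β-catenin branch, had the largest rise of the ligands in both treatments. It lay at 21.8 to 30.8 CPM with TGF-β1 (median 25.0), 7.70 to 9.64 CPM with FBS (median 9.10) and 0 to 0.674 CPM in serum-free medium (median 0.205). The libraries of the 3 conditions did not overlap, with TGF-β1 highest and serum-free lowest. The log2 fold change was 6.67 (SE 0.30, adjusted p = 3.69e-16) for TGF-β1 against serum-free medium and 5.16 (SE 0.30, adjusted p = 1.65e-14) for FBS. Between TGF-β1 and FBS the log2 fold change was 1.51 (SE 0.21, adjusted p = 3.85e-07), a 2.85-fold higher level with TGF-β1. In serum-free medium WNT2 averaged 0.102 CPM in set 1 and 0.389 CPM in set 2, and the log2 values against it were 8.05 and 5.93 with TGF-β1 and 6.45 and 4.52 with FBS in sets 1 and 2. The set-by-treatment term passed the threshold for each (adjusted p = 0.0309 with TGF-β1 and 0.0311 with FBS). In the coordinates of the table, of a genome build that the sources used here do not name, WNT2 spans chromosome 7 from 27896473 to 27940607 on the plus strand.

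WNT11, which acts mainly without β-catenin in cell movements of the vertebrate embryo, split the treatments. Its level was 24.5 to 42.7 CPM with TGF-β1 (median 34.7), 3.58 to 5.39 CPM with FBS (median 4.82) and 7.41 to 12.6 CPM in serum-free medium (median 10.1). No library of one condition overlapped those of another, and the order was TGF-β1, serum-free and then FBS. TGF-β1 raised it by 1.77 (SE 0.12, adjusted p = 2.41e-12) on the log2 scale and FBS changed it by -1.11 (SE 0.13, adjusted p = 1.18e-08), with the same signs within each set (1.96 in set 1 and 1.54 in set 2 with TGF-β1; -1.22 in set 1 and -0.98 in set 2 with FBS). WNT8A and WNT5B also rose with TGF-β1 and fell with FBS. WNT8A, best known from embryonic patterning, averaged 2.90 ± 0.830 CPM with TGF-β1, 0.277 ± 0.215 CPM with FBS and 1.33 ± 0.641 CPM in serum-free medium (SD, n = 8 each), with log2 fold changes of 1.11 (SE 0.34, adjusted p = 0.00672) with TGF-β1 and -2.26 (SE 0.40, adjusted p = 1.23e-05) with FBS. Within set 1 the TGF-β1 change of WNT8A was 0.81 and did not pass (adjusted p = 0.0718). WNT5B, a close relative of WNT5A, averaged 2.56 ± 0.782 CPM with TGF-β1, 0.470 ± 0.346 CPM with FBS and 1.18 ± 0.439 CPM in serum-free medium, with log2 fold changes of 1.12 (SE 0.32, adjusted p = 0.00389) with TGF-β1 and -1.33 (SE 0.35, adjusted p = 0.00127) with FBS. Within set 2 its FBS change was -0.79 (adjusted p = 0.168). WNT5B overlaps FBXL14 and LOC103349009 on the other strand, and whether the counting used strand is not given, so its reads may include theirs.

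WNT5A, the main ligand of the ROR receptors and the most abundant ligand per length in all 3 conditions, fell in both treatments. Its level was 29.9 to 69.7 CPM with TGF-β1 (median 51.9), 24.9 to 46.9 CPM with FBS (median 37.1) and 108 to 176 CPM in serum-free medium (median 144). Every treated library was below every serum-free library, and the TGF-β1 and FBS libraries overlapped. Log2 fold changes against serum-free medium were -1.54 (SE 0.18, adjusted p = 4.01e-08) with TGF-β1 and -2.03 (SE 0.18, adjusted p = 1.21e-10) with FBS. The TGF-β1 change was -1.27 in set 1 and -1.96 in set 2 (set term adjusted p = 0.00629). TGF-β1 exceeded FBS by 0.49 (SE 0.18, adjusted p = 0.0158), but not within set 2 (0.11, adjusted p = 0.507), not without FBS replicates 5 and 6 (0.35, adjusted p = 0.084) and not with total-count scaling (0.085, adjusted p = 0.661).

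WNT4 and WNT9A fell as well. WNT4, a ligand known from kidney and gonad development, lay at 2.54 to 5.15 CPM with TGF-β1 (median 3.56), 1.14 to 5.94 CPM with FBS (median 3.41) and 6.83 to 14.3 CPM in serum-free medium (median 11.1). All treated libraries were below all serum-free libraries, with log2 fold changes of -1.56 (SE 0.28, adjusted p = 3.01e-05) with TGF-β1 and -1.69 (SE 0.28, adjusted p = 5.15e-06) with FBS. The treated conditions changed places between sets: TGF-β1 exceeded FBS by 1.48 in set 1 (adjusted p = 5.88e-06), whereas in set 2 it was the lower one, at -0.82 (adjusted p = 0.000162), and the pooled difference was 0.13 (SE 0.29, adjusted p = 0.7). The set term of that difference had an adjusted p of 2.97e-07. WNT9A, a ligand with a role in joint formation, lay at 9.12 to 14.6 CPM with TGF-β1 (median 10.4), 0.850 to 4.37 CPM with FBS (median 2.33) and 13.4 to 28.5 CPM in serum-free medium (median 20.2). FBS libraries were the lowest, with no overlap, and TGF-β1 libraries overlapped the serum-free ones. The change was -0.87 (SE 0.26, adjusted p = 0.00495) with TGF-β1 and -3.13 (SE 0.29, adjusted p = 1.64e-10) with FBS (-3.80 in set 1 and -2.81 in set 2; set term adjusted p = 0.00107).

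WNT16, studied for its effect on bone and joint tissue, was low with FBS alone. It lay at 1.29 to 2.80 CPM with TGF-β1 (median 2.33), 0.0428 to 0.492 CPM with FBS (median 0.123) and 0.613 to 4.54 CPM in serum-free medium (median 3.47). The FBS libraries were all below the others, and the TGF-β1 and serum-free libraries overlapped. The change was -3.84 (SE 0.46, adjusted p = 2.33e-08) with FBS, with -3.67 in set 1 and -4.53 in set 2, and -0.38 (SE 0.37, adjusted p = 0.386) with TGF-β1, which did not pass. Within set 1 the TGF-β1 change was -0.79 (adjusted p = 0.0254). WNT2B, a paralog of WNT2, averaged 0.240 ± 0.159 CPM with TGF-β1, 0.562 ± 0.205 CPM with FBS and 0.598 ± 0.430 CPM in serum-free medium. Its changes were -1.29 (SE 0.49, adjusted p = 0.0228) with TGF-β1 and -0.082 (SE 0.43, adjusted p = 0.864) with FBS, and the TGF-β1 call did not hold in set 1 (-0.87, adjusted p = 0.29).

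The 9 other ligand genes had too few counts to test. WNT10B had 76 counts over the 8 TGF-β1 libraries, 52 over FBS and 7 over serum-free libraries. WNT1 had 50 counts with TGF-β1, at least 1 in each of the 8 libraries, 8 with FBS and 0 in serum-free medium. WNT6 had 11 counts with TGF-β1, 10 with FBS and 20 in serum-free medium, and WNT8B had 1, 22 and 13 counts in the same order. WNT3A, WNT3, WNT10A and WNT9B had 3 to 13 counts in all, and WNT7A had none, where 3 counts over a group is the limit that a count of 0 allows. Intervals and limits of this kind cover counting error only.

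PORCN, the enzyme that adds the lipid without which Wnt proteins are not secreted, lay at 14.9 to 21.2 CPM with TGF-β1 (median 17.9), 5.33 to 11.6 CPM with FBS (median 6.64) and 9.48 to 20.2 CPM in serum-free medium (median 16.1). TGF-β1 libraries overlapped the serum-free ones, and were all above the FBS libraries. Its changes were 0.16 (SE 0.16, adjusted p = 0.375) with TGF-β1, which did not pass, and -1.12 (SE 0.16, adjusted p = 3.92e-07) with FBS. The difference between TGF-β1 and FBS was 1.28 (SE 0.16, adjusted p = 5.89e-08).

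Levels of different genes can be compared on the deposited FPKM, which divide by gene length. The ligands summed to 81.3 ± 19.7 FPKM with TGF-β1, 41.4 ± 5.25 FPKM with FBS and 148.6 ± 18.7 FPKM in serum-free medium (SD, n = 8 each). The summed FPKM of TGF-β1 libraries (61.1 to 102.2) lay above that of FBS libraries (34.0 to 49.6) and below that of serum-free libraries (118.1 to 172.8). WNT5A made up 53.2% ± 7.61 with TGF-β1, 75.4% ± 7.72 with FBS and 86.6% ± 3.28 in serum-free medium of that sum. WNT11 made up 21.4% ± 2.83 with TGF-β1, 5.71% ± 1.05 with FBS and 3.43% ± 0.800 in serum-free medium, and WNT2 14.1% ± 3.06 with TGF-β1, 9.38% ± 1.35 with FBS and 0.0750% ± 0.0760 in serum-free medium. So, per length, ligand RNA of serum-free cells was mostly WNT5A, while that of TGF-β1 cells held WNT11 and WNT2 beside it. These shares depend on the annotated gene lengths, which were 1139 bases for WNT5A, 2036 for WNT11 and 2315 for WNT2. A shorter length raises the FPKM and the share of a gene. WNT4 was 2.69 ± 0.631 FPKM with TGF-β1, 2.47 ± 1.44 FPKM with FBS and 7.96 ± 1.73 FPKM in serum-free medium, and WNT9A was 2.10 ± 0.393 FPKM with TGF-β1, 0.441 ± 0.265 FPKM with FBS and 3.84 ± 1.09 FPKM in serum-free medium.

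**Figure D2:**
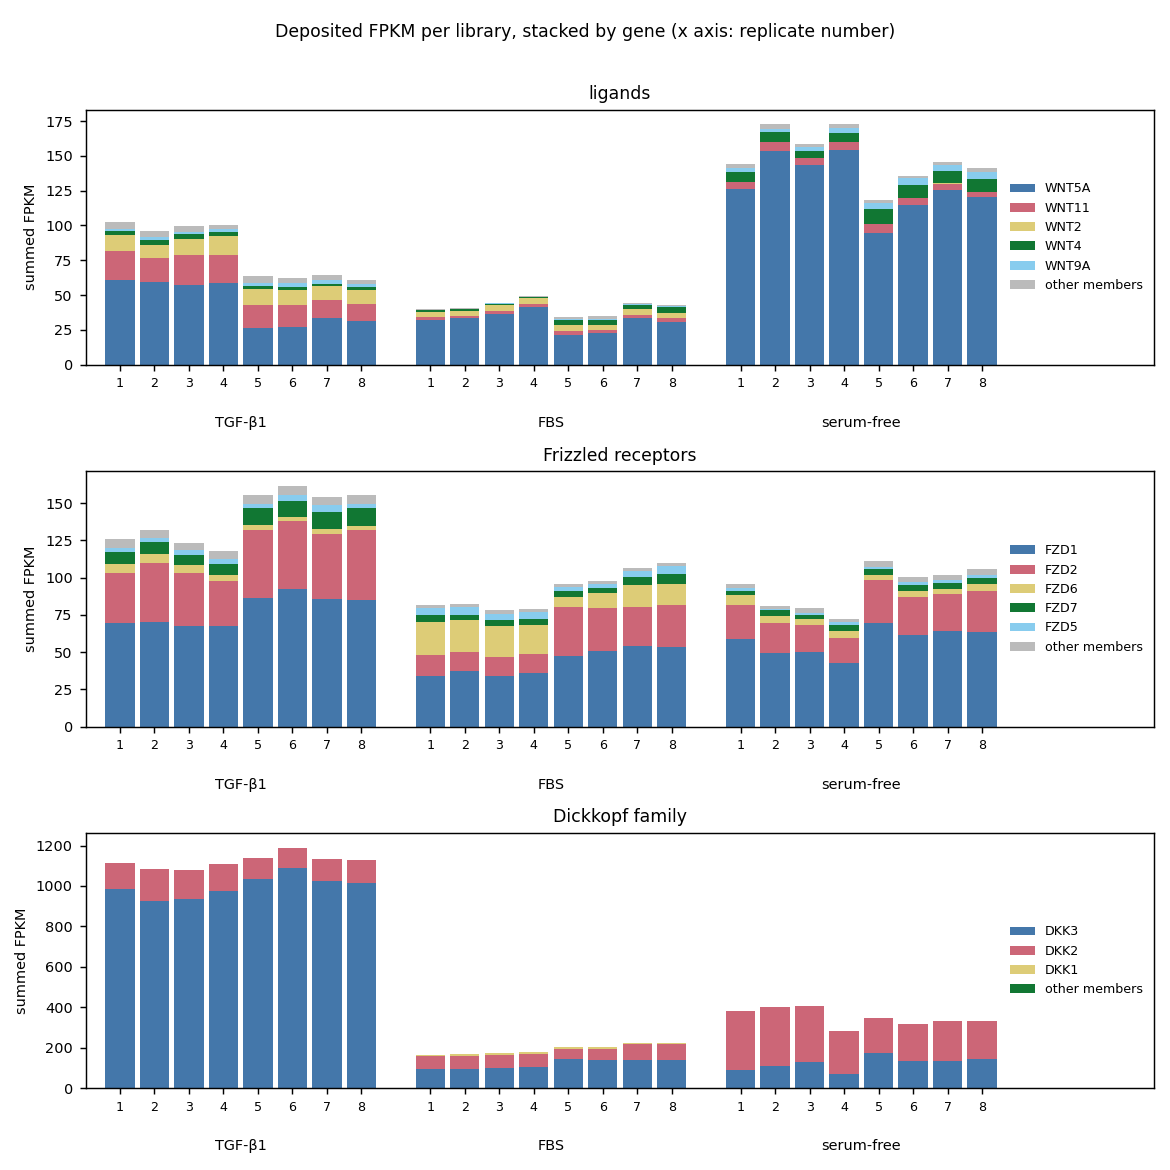
Deposited FPKM summed over ligands, Frizzled receptors and the Dickkopf family in each library (x axis: replicates 1 to 8 of TGF-β1, FBS and serum-free medium from left to right; y axis: FPKM from 0), stacked by gene. WNT5A fills most of each serum-free ligand bar (86.6% on average), FZD6 is thickest in FBS replicates 1 to 4, and DKK3 fills 85.8% to 91.7% of each TGF-β1 Dickkopf bar.

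All 9 Frizzled genes tested are receptors with a cysteine-rich domain that holds the ligand. Against serum-free medium 6 of the 9 rose and 1 fell with TGF-β1, where 31.2% of all genes rose and 33.1% fell. With FBS 2 rose and 3 fell, where 39.5% of all genes rose and 40.5% fell. FZD1 and FZD2 were the most abundant per length. FZD1 was 78.0 ± 10.3 FPKM with TGF-β1, 43.4 ± 8.89 FPKM with FBS and 57.4 ± 9.07 FPKM in serum-free medium (SD, n = 8 each), and FZD2 was 40.1 ± 6.28 FPKM with TGF-β1, 21.1 ± 8.82 FPKM with FBS and 23.1 ± 4.43 FPKM in serum-free medium. Together they are the bulk of Frizzled RNA in every condition, with FZD1 at 55.4% ± 1.27 with TGF-β1, 47.0% ± 3.67 with FBS and 61.3% ± 1.40 in serum-free medium and FZD2 at 28.4% ± 1.57 with TGF-β1, 22.4% ± 7.27 with FBS and 24.5% ± 1.29 in serum-free medium of the summed Frizzled FPKM. On the CPM scale FZD1 lay at 114 to 155 CPM with TGF-β1 (median 132), 57.7 to 91.0 CPM with FBS (median 72.4) and 72.2 to 118 CPM in serum-free medium (median 101). TGF-β1 libraries were all above FBS libraries and overlapped serum-free ones. It rose with TGF-β1, at a log2 fold change of 0.44 (SE 0.12, adjusted p = 0.00237), and fell with FBS, at -0.40 (SE 0.12, adjusted p = 0.00338); the FBS call was lost with total-count scaling (-0.15, adjusted p = 0.268). FZD2 lay at 56.8 to 87.1 CPM with TGF-β1 (median 79.2), 23.4 to 62.8 CPM with FBS (median 37.6) and 31.6 to 54.2 CPM in serum-free medium (median 45.3). All TGF-β1 libraries were above the serum-free ones, and the change was 0.80 (SE 0.20, adjusted p = 0.000953). With FBS the change was -0.13 (SE 0.20, adjusted p = 0.559) and did not pass, with -0.56 in set 1 and 0.13 in set 2 (set term adjusted p = 0.000609).

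FZD7 and FZD4 rose with TGF-β1. FZD7, a receptor often studied in stem cells and tumours, lay at 15.6 to 26.2 CPM with TGF-β1 (median 21.5), 7.16 to 14.8 CPM with FBS (median 8.73) and 5.20 to 10.0 CPM in serum-free medium (median 8.48). TGF-β1 libraries stood above all others, and FBS and serum-free libraries overlapped. The change was 1.38 (SE 0.16, adjusted p = 4.58e-08) with TGF-β1, with 1.30 in set 1 and 1.44 in set 2. With FBS it was 0.28 (SE 0.16, adjusted p = 0.113), and passed with the replicate number as a block (adjusted p = 0.0464) and with total-count scaling (0.53, adjusted p = 0.00658). FZD4, the receptor of norrin as well as of Wnt ligands, lay at 8.70 to 25.0 CPM with TGF-β1 (median 17.1), 2.47 to 5.70 CPM with FBS (median 4.40) and 6.98 to 9.32 CPM in serum-free medium (median 8.12). The TGF-β1 libraries of set 1 (20.8 to 25.0 CPM) were above all others, while those of set 2 (8.70 to 13.4 CPM) overlapped the serum-free libraries. Its change with TGF-β1 was 1.03 (SE 0.21, adjusted p = 0.000116), made of 1.51 in set 1 and 0.31 in set 2 (set 2 adjusted p = 0.187; set term adjusted p = 0.000824). With FBS it fell, without overlap, at -0.91 (SE 0.21, adjusted p = 0.000378).

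FZD6 and FZD5 rose with FBS. FZD6, which acts in planar polarity with FZD3, lay at 8.97 to 19.3 CPM with TGF-β1 (median 12.1), 21.4 to 68.4 CPM with FBS (median 53.3) and 10.9 to 21.4 CPM in serum-free medium (median 13.2). The FBS libraries were above all others, though the lowest of them lay next to the highest serum-free library (both 21.4 CPM), and TGF-β1 and serum-free libraries overlapped. Its change was 1.82 (SE 0.22, adjusted p = 2.43e-08) with FBS (2.00 in set 1 and 1.54 in set 2) and -0.098 (SE 0.22, adjusted p = 0.71) with TGF-β1, which did not pass. FZD6 made up 3.17% ± 1.27 with TGF-β1, 18.6% ± 8.49 with FBS and 5.06% ± 1.58 in serum-free medium of Frizzled FPKM. FZD5, a receptor known from eye development in the mouse, lay at 5.59 to 10.0 CPM with TGF-β1 (median 6.86), 6.07 to 12.3 CPM with FBS (median 10.2) and 1.95 to 5.17 CPM in serum-free medium (median 3.86). All treated libraries were above the serum-free ones, by 0.92 (SE 0.19, adjusted p = 0.000129) with TGF-β1 and 1.32 (SE 0.19, adjusted p = 4.33e-07) with FBS. The treatments differed by -0.39 (SE 0.18, adjusted p = 0.0538), which passed with the replicate block (adjusted p = 0.0481) without FBS replicates 5 and 6 (adjusted p = 0.00505) and with total-count scaling (-0.79, adjusted p = 0.000439).

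FZD3, a planar polarity receptor needed for axon guidance in the mouse, fell with TGF-β1. It lay at 0.0560 to 0.862 CPM with TGF-β1 (median 0.388), 0.873 to 2.06 CPM with FBS (median 1.47) and 0.0562 to 1.83 CPM in serum-free medium (median 1.33). The TGF-β1 libraries were all below the FBS libraries and overlapped the serum-free ones. The change was -1.57 (SE 0.46, adjusted p = 0.00437) with TGF-β1 and 0.31 (SE 0.40, adjusted p = 0.48) with FBS, and within set 2 the TGF-β1 change was -1.06 (adjusted p = 0.183). FZD8 averaged 2.75 ± 1.40 CPM with TGF-β1, 0.831 ± 0.264 CPM with FBS and 1.42 ± 0.728 CPM in serum-free medium. Its TGF-β1 change of 0.95 (SE 0.34, adjusted p = 0.0185) was lost with total-count scaling (adjusted p = 0.0526). Its FBS change of -0.77 (SE 0.36, adjusted p = 0.0497) was lost with that scaling (adjusted p = 0.184) and without FBS replicates 5 and 6 (adjusted p = 0.134), without a filter on low counts (0.0777) and with limma on FPKM (0.117). It was 0.027 in set 1 and -1.26 in set 2. FZD9 averaged 0.484 to 0.717 CPM in the 3 conditions and passed no comparison with TMM scaling. With total-count scaling it was higher with FBS than in serum-free medium (0.82, adjusted p = 0.0212) and lower with TGF-β1 than with FBS (-0.86, adjusted p = 0.0187).

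The co-receptors LRP5 and LRP6 carry the ligand signal to the Axin complex. LRP6 lay at 254 to 327 CPM with TGF-β1 (median 292), 31.8 to 79.1 CPM with FBS (median 68.8) and 127 to 206 CPM in serum-free medium (median 176). The 3 conditions did not overlap: TGF-β1 was highest and FBS lowest. The log2 fold change was 0.71 (SE 0.14, adjusted p = 0.000117) with TGF-β1 and -1.47 (SE 0.15, adjusted p = 8.00e-10) with FBS, and between the treatments the log2 difference was 2.19 (SE 0.15, adjusted p = 6.75e-13), or 4.55-fold. The signs were the same in both sets, at 0.71 in set 1 and 0.72 in set 2 with TGF-β1 and -1.24 in set 1 and -1.76 in set 2 with FBS. LRP5 lay at 36.5 to 59.4 CPM with TGF-β1 (median 48.1), 23.9 to 38.6 CPM with FBS (median 30.2) and 39.9 to 66.8 CPM in serum-free medium (median 50.1). FBS libraries were all below the serum-free ones, and TGF-β1 libraries overlapped both. Its changes were -0.73 (SE 0.13, adjusted p = 1.64e-05) with FBS and -0.12 (SE 0.13, adjusted p = 0.42) with TGF-β1, which did not pass. TGF-β1 exceeded FBS by 0.60 (SE 0.13, adjusted p = 0.000206), a call lost with total-count scaling (adjusted p = 0.182).

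ROR1 and ROR2 are receptor tyrosine kinases that bind WNT5A. ROR1 lay at 4.37 to 7.72 CPM with TGF-β1 (median 5.50), 0.0428 to 0.668 CPM with FBS (median 0.321) and 5.00 to 14.3 CPM in serum-free medium (median 9.28). All FBS libraries were at or below 0.668 CPM, under every other library, and the TGF-β1 and serum-free libraries overlapped. The change with FBS was -4.81 (SE 0.32, adjusted p = 2.33e-13), 28.0-fold lower, with -4.72 in set 1 and -5.09 in set 2. With TGF-β1 the change was -0.72 (SE 0.25, adjusted p = 0.014), which was -1.39 and called within set 1 (adjusted p = 6.35e-07) but 0.10 within set 2 (adjusted p = 0.701), and the set term had an adjusted p of 0.000336. The serum-free libraries differed between sets, at 11.1 to 14.3 CPM in set 1 and 5.00 to 7.47 CPM in set 2. ROR2 lay at 17.3 to 26.2 CPM with TGF-β1 (median 21.8), 17.5 to 21.4 CPM with FBS (median 20.5) and 16.6 to 29.5 CPM in serum-free medium (median 23.3). The 3 conditions overlapped, and no comparison passed: -0.068 (SE 0.12, adjusted p = 0.625) with TGF-β1, -0.20 (SE 0.12, adjusted p = 0.121) with FBS and 0.13 (SE 0.12, adjusted p = 0.325) between them. Within set 1 ROR2 was lower with FBS (-0.49, adjusted p = 6.88e-05), with 0.18 in set 2, and the set term had an adjusted p of 0.00031. With total-count scaling ROR2 was lower with TGF-β1 than with FBS, at -0.27 (adjusted p = 0.0197). ROR2 overlaps GNG10 on the other strand, so its reads may include those of GNG10.

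LGR4, LGR5 and LGR6 are receptors for R-spondins, secreted proteins that protect Frizzled receptors from removal. LGR4 lay at 4.09 to 12.9 CPM with TGF-β1 (median 7.46), 9.20 to 15.5 CPM with FBS (median 10.2) and 4.61 to 10.3 CPM in serum-free medium (median 7.67). The conditions overlapped, and its FBS change of 0.54 (SE 0.22, adjusted p = 0.0287) was present in set 2 (1.12) and not in set 1 (0.071, adjusted p = 0.584; set term adjusted p = 0.000687). With TGF-β1 the change was 0.019 (SE 0.23, adjusted p = 0.947), and the sign depended on the scaling and on the set. LGR5, a stem cell marker of the gut, lay at 0.224 to 1.50 CPM with TGF-β1 (median 1.02), 1.58 to 6.65 CPM with FBS (median 3.64) and 1.32 to 6.36 CPM in serum-free medium (median 3.00). TGF-β1 libraries were all below the FBS libraries. The change was -1.84 (SE 0.39, adjusted p = 0.000204) with TGF-β1, with -2.84 in set 1 and -0.78 in set 2 (set 2 adjusted p = 0.0513; set term adjusted p = 0.00969), and 0.14 (SE 0.35, adjusted p = 0.721) with FBS, which did not pass. LGR6 lay at 0 to 2.21 CPM with TGF-β1 (median 1.10), 0.0985 to 0.721 CPM with FBS (median 0.444) and 1.40 to 4.06 CPM in serum-free medium (median 3.03). All FBS libraries were below the serum-free ones, and TGF-β1 libraries fell into the sets, at 0 to 0.365 CPM in set 1 and 1.84 to 2.21 CPM in set 2. Its change was -2.79 (SE 0.52, adjusted p = 2.55e-05) with FBS, while with TGF-β1 it was -1.45 (SE 0.49, adjusted p = 0.0118), made of -3.78 in set 1 and -0.87 in set 2 (set term adjusted p = 0.00104). TGF-β1 against FBS gave 1.34 (SE 0.54, adjusted p = 0.0284), with -0.98 in set 1 and 1.89 in set 2, and that call did not survive a replicate block (adjusted p = 0.0501), total-count scaling (0.115), a fit of these 2 conditions alone (0.0549) or limma on FPKM (0.15).

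The R-spondins themselves had too few counts to test. RSPO1 had 49 counts with TGF-β1, 16 with FBS and 0 in serum-free medium, RSPO2 had 47, 13 and 30, and RSPO3 had 15, 3 and 45, in the same order of conditions. In TGF-β1 libraries 21 of the 49 RSPO1 counts came from replicate 4. RSPO4 had 3 counts, all in serum-free medium.

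DKK1, the best known inhibitor of the LRP co-receptors, was almost confined to FBS libraries. It lay at 0 to 0.438 CPM with TGF-β1 (median 0.0287), 7.27 to 15.8 CPM with FBS (median 10.7) and 0 CPM in serum-free medium. Counts were 0, 0, 1, 6, 2, 2, 0 and 0 in TGF-β1 replicates 1 to 8, against 262, 352, 341, 385, 147, 155, 155 and 187 in FBS replicates 1 to 8, and 0 in every serum-free library. Over the group, FBS had 1984 counts and serum-free medium 0, a level at least 560.8-fold higher with FBS when 3 counts are set for serum-free medium. The fitted test gave an adjusted p of 6.21e-12. TGF-β1 had 11 counts in 4 of the 8 libraries, 4.36-fold the serum-free level on the same floor (fitted test, adjusted p = 0.0093), and 6 of the 11 were in replicate 4. The counting error of the 11 counts is not part of that value. DKK1 passed the filter on low counts through its FBS libraries, whereas WNT1, with 50 counts with TGF-β1 and 0 in serum-free medium, was not tested. The TGF-β1 call of DKK1 is thus not taken as support for a rise. TGF-β1 was 116-fold below FBS, at a log2 fold change of -6.86 (SE 0.46, adjusted p = 5.79e-11), with -6.94 in set 1 and -6.77 in set 2. In the table's coordinates DKK1 spans chromosome 18 from 33155927 to 33158550 on the minus strand.

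DKK3, a distant family member whose effect on Wnt signalling is disputed, rose with TGF-β1. It lay at 2258 to 2602 CPM with TGF-β1 (median 2400), 225 to 356 CPM with FBS (median 295) and 176 to 425 CPM in serum-free medium (median 318). TGF-β1 libraries stood far above all others, and FBS and serum-free libraries overlapped. The change was 3.00 (SE 0.15, adjusted p = 2.58e-15), 8.01-fold, with 3.27 in set 1 and 2.80 in set 2. With FBS it was -0.047 (SE 0.14, adjusted p = 0.763) and did not pass, and the sign turned with total-count scaling (0.20). DKK2, which can inhibit or activate LRP6 depending on the setting, lay at 260.0 to 412 CPM with TGF-β1 (median 318), 138 to 208 CPM with FBS (median 170.2) and 461 to 766 CPM in serum-free medium (median 548). The 3 conditions did not overlap, with serum-free highest and FBS lowest. It fell in both treatments, with log2 fold changes of -0.89 (SE 0.13, adjusted p = 8.52e-07) with TGF-β1 and -1.80 (SE 0.13, adjusted p = 9.92e-13) with FBS. DKK3 made up 89.0% ± 2.11 with TGF-β1, 61.8% ± 6.42 with FBS and 35.7% ± 9.86 in serum-free medium of the summed Dickkopf FPKM. DKK2 made up 10.9% ± 2.10 with TGF-β1, 33.7% ± 4.97 with FBS and 64.2% ± 9.89 in serum-free medium. The sum was 1122 ± 35.0 FPKM with TGF-β1, 193.3 ± 23.9 FPKM with FBS and 351.3 ± 43.1 FPKM in serum-free medium. DKK4 had 11 counts with TGF-β1, 4 with FBS and 67 in serum-free medium, and was not tested.

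KREMEN1, a partner of DKK1 in the removal of LRP6 from the cell surface, lay at 153 to 184 CPM with TGF-β1 (median 170.0), 71.7 to 96.2 CPM with FBS (median 83.8) and 235 to 289 CPM in serum-free medium (median 253). The conditions did not overlap, in the same order as for DKK2. It fell in both treatments, with log2 fold changes of -0.61 (SE 0.072, adjusted p = 4.31e-08) with TGF-β1 and -1.63 (SE 0.074, adjusted p = 7.09e-17) with FBS, where DKK1 was high. KREMEN2 had no count in any library.

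Among the secreted Wnt-binding antagonists WIF1 had the highest FPKM in each condition, at 2.57 ± 0.499 FPKM with TGF-β1, 9.50 ± 0.511 FPKM with FBS and 1.66 ± 0.325 FPKM in serum-free medium (SD, n = 8 each). WIF1, which binds ligands outside the cell, lay at 4.37 to 8.01 CPM with TGF-β1 (median 6.20), 21.9 to 24.5 CPM with FBS (median 23.3) and 2.59 to 4.89 CPM in serum-free medium (median 4.13). The FBS libraries were above all others, and TGF-β1 libraries overlapped serum-free ones. It rose with FBS by 2.52 (SE 0.13, adjusted p = 5.96e-16), 5.74-fold, with 2.50 in set 1 and 2.55 in set 2, and with TGF-β1 by 0.63 (SE 0.13, adjusted p = 9.96e-05). WIF1 overlaps LOC103348315 on the other strand, so its reads may include those of that gene. FRZB, an SFRP relative also called SFRP3, lay at 0 to 1.12 CPM with TGF-β1 (median 0.514), 0 to 0.128 CPM with FBS (median 0.0416) and 0.618 to 4.75 CPM in serum-free medium (median 2.93). All FBS libraries were below the serum-free ones, while TGF-β1 libraries overlapped them through serum-free replicate 7 (0.618 CPM). It fell in both treatments, with log2 fold changes of -2.63 (SE 0.44, adjusted p = 1.10e-05) with TGF-β1 and -5.68 (SE 0.57, adjusted p = 8.39e-10) with FBS. TGF-β1 exceeded FBS by 3.05 (SE 0.64, adjusted p = 0.000126), but within set 2 the adjusted p was 0.0552. FRZB had 9 counts in 5 of the 8 FBS libraries, 60 counts with TGF-β1 and 445 in serum-free medium. The size of its changes that involve FBS thus rests on a level near 0.

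SFRP genes encode secreted proteins that bind Wnt ligands through a Frizzled-like domain. SFRP4 lay at 2.41 to 4.75 CPM with TGF-β1 (median 3.64), 0.515 to 1.15 CPM with FBS (median 0.699) and 0.122 to 1.72 CPM in serum-free medium (median 0.659). TGF-β1 libraries were all above the others. It rose by 2.26 (SE 0.31, adjusted p = 5.90e-07) with TGF-β1, and its FBS change was 0.024 (SE 0.33, adjusted p = 0.949). SFRP1 averaged 0.613 ± 0.211 CPM with TGF-β1, 0.909 ± 0.490 CPM with FBS and 1.12 ± 0.421 CPM in serum-free medium, with changes of -0.87 (SE 0.34, adjusted p = 0.0264) with TGF-β1 and -0.31 (SE 0.32, adjusted p = 0.378) with FBS, and the TGF-β1 call was absent within set 2 (-0.38, adjusted p = 0.404). SFRP1 was lower with FBS within set 1 (-1.22, adjusted p = 0.0136), and lower with TGF-β1 than with FBS under total-count scaling (-0.95, adjusted p = 0.0126). SFRP5 averaged 1.28 ± 0.445 CPM with TGF-β1, 0.517 ± 0.170 CPM with FBS and 1.31 ± 0.524 CPM in serum-free medium, and fell with FBS, at -1.33 (SE 0.28, adjusted p = 9.16e-05). SFRP2 averaged 1.70 ± 0.635 CPM with TGF-β1, 1.44 ± 0.389 CPM with FBS and 1.12 ± 0.540 CPM in serum-free medium and passed no comparison over all libraries, while within set 2 it was higher with TGF-β1 than in serum-free medium (0.63, adjusted p = 0.0387). Of the summed FPKM of these 6 genes WIF1 made up 41.7% ± 6.62 with TGF-β1, 84.1% ± 2.92 with FBS and 35.5% ± 4.88 in serum-free medium. After WIF1 the largest share was that of SFRP4 with TGF-β1, at 28.2% ± 3.70, of SFRP2 with FBS, at 9.03% ± 2.06, and of FRZB in serum-free medium, at 26.0% ± 8.92.

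AXIN2, the Axin scaffold that is itself a target of β-catenin and is widely read as a measure of its activity, fell in both treatments. It lay at 5.13 to 9.48 CPM with TGF-β1 (median 7.12), 4.32 to 7.37 CPM with FBS (median 5.97) and 16.3 to 36.9 CPM in serum-free medium (median 29.2). All treated libraries were below all serum-free libraries, and the treatments overlapped. It fell in both treatments, with log2 fold changes of -1.96 (SE 0.16, adjusted p = 3.81e-11) with TGF-β1 and -2.25 (SE 0.16, adjusted p = 8.31e-13) with FBS. The TGF-β1 fall was -1.45 in set 1 and -2.42 in set 2 (set term adjusted p = 0.00175), and the FBS fall was -2.17 in set 1 and -2.29 in set 2. The treatments differed by 0.29 (SE 0.16, adjusted p = 0.101), which passed without FBS replicates 5 and 6 (adjusted p = 0.0412). AXIN1, the constitutive scaffold, lay at 24.9 to 38.7 CPM with TGF-β1 (median 29.5), 20.1 to 40.3 CPM with FBS (median 23.3) and 33.5 to 47.5 CPM in serum-free medium (median 38.5). The conditions overlapped. Its changes were -0.35 (SE 0.14, adjusted p = 0.0293) with TGF-β1 and -0.58 (SE 0.14, adjusted p = 0.000491) with FBS, and between the treatments 0.23 (SE 0.14, adjusted p = 0.146), which passed with the replicate block (adjusted p = 0.00429) and without FBS replicates 5 and 6 (adjusted p = 0.00301), and turned sign with total-count scaling (-0.16).

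NKD1, an inhibitor that binds Dishevelled and is induced by Wnt signals, lay at 9.62 to 21.5 CPM with TGF-β1 (median 10.6), 1.71 to 3.66 CPM with FBS (median 2.73) and 20.2 to 39.3 CPM in serum-free medium (median 30.6). FBS libraries were below all others, and the highest TGF-β1 library, at 21.5 CPM, lay above the lowest serum-free library, at 20.2 CPM. NKD1 fell in both treatments, with log2 fold changes of -1.27 (SE 0.17, adjusted p = 4.92e-07) with TGF-β1 and -3.47 (SE 0.19, adjusted p = 4.79e-15) with FBS, 11.1-fold lower. The values within sets were -1.06 in set 1 and -1.53 in set 2 with TGF-β1 and -3.51 in set 1 and -3.42 in set 2 with FBS.

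The TCF and LEF factors bind DNA and turn β-catenin into a transcriptional signal. LEF1, an activator that Wnt signals induce, rose in both treatments. It lay at 0.520 to 1.78 CPM with TGF-β1 (median 0.986), 1.09 to 3.54 CPM with FBS (median 2.81) and 0 to 0.566 CPM in serum-free medium (median 0.170). FBS libraries were all above the serum-free ones, and TGF-β1 libraries overlapped both. It rose by 2.15 (SE 0.42, adjusted p = 7.57e-05) with TGF-β1 and 3.55 (SE 0.40, adjusted p = 9.12e-09) with FBS. TCF7L1, mostly a repressor, moved the other way and lay at 32.2 to 40.5 CPM with TGF-β1 (median 36.9), 9.13 to 14.6 CPM with FBS (median 11.3) and 49.8 to 62.8 CPM in serum-free medium (median 52.9). The conditions did not overlap, with serum-free highest and FBS lowest. It fell in both treatments, with log2 fold changes of -0.54 (SE 0.095, adjusted p = 1.96e-05) with TGF-β1 and -2.21 (SE 0.099, adjusted p = 6.73e-17) with FBS. TCF7L2 likewise lay at 31.7 to 36.8 CPM with TGF-β1 (median 34.9), 20.1 to 29.7 CPM with FBS (median 25.9) and 41.0 to 55.4 CPM in serum-free medium (median 47.5), without overlap, and fell in both treatments, with log2 fold changes of -0.47 (SE 0.078, adjusted p = 1.02e-05) with TGF-β1 and -0.91 (SE 0.078, adjusted p = 4.78e-11) with FBS. TGF-β1 exceeded FBS in TCF7L2 by 0.44 (SE 0.078, adjusted p = 1.50e-05), a call lost with total-count scaling (adjusted p = 0.657). TCF7 averaged 2.81 ± 0.912 CPM with TGF-β1, 0.851 ± 0.348 CPM with FBS and 2.77 ± 0.813 CPM in serum-free medium, and fell with FBS, at -1.70 (SE 0.26, adjusted p = 1.08e-06), with a TGF-β1 change of 0.022 (SE 0.24, adjusted p = 0.944). Per length, the summed TCF and LEF level was 23.6 ± 1.46 FPKM with TGF-β1, 11.4 ± 0.699 FPKM with FBS and 32.9 ± 1.57 FPKM in serum-free medium, and LEF1 held 6.02% ± 2.26 of it with FBS.

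**Figure D3:**
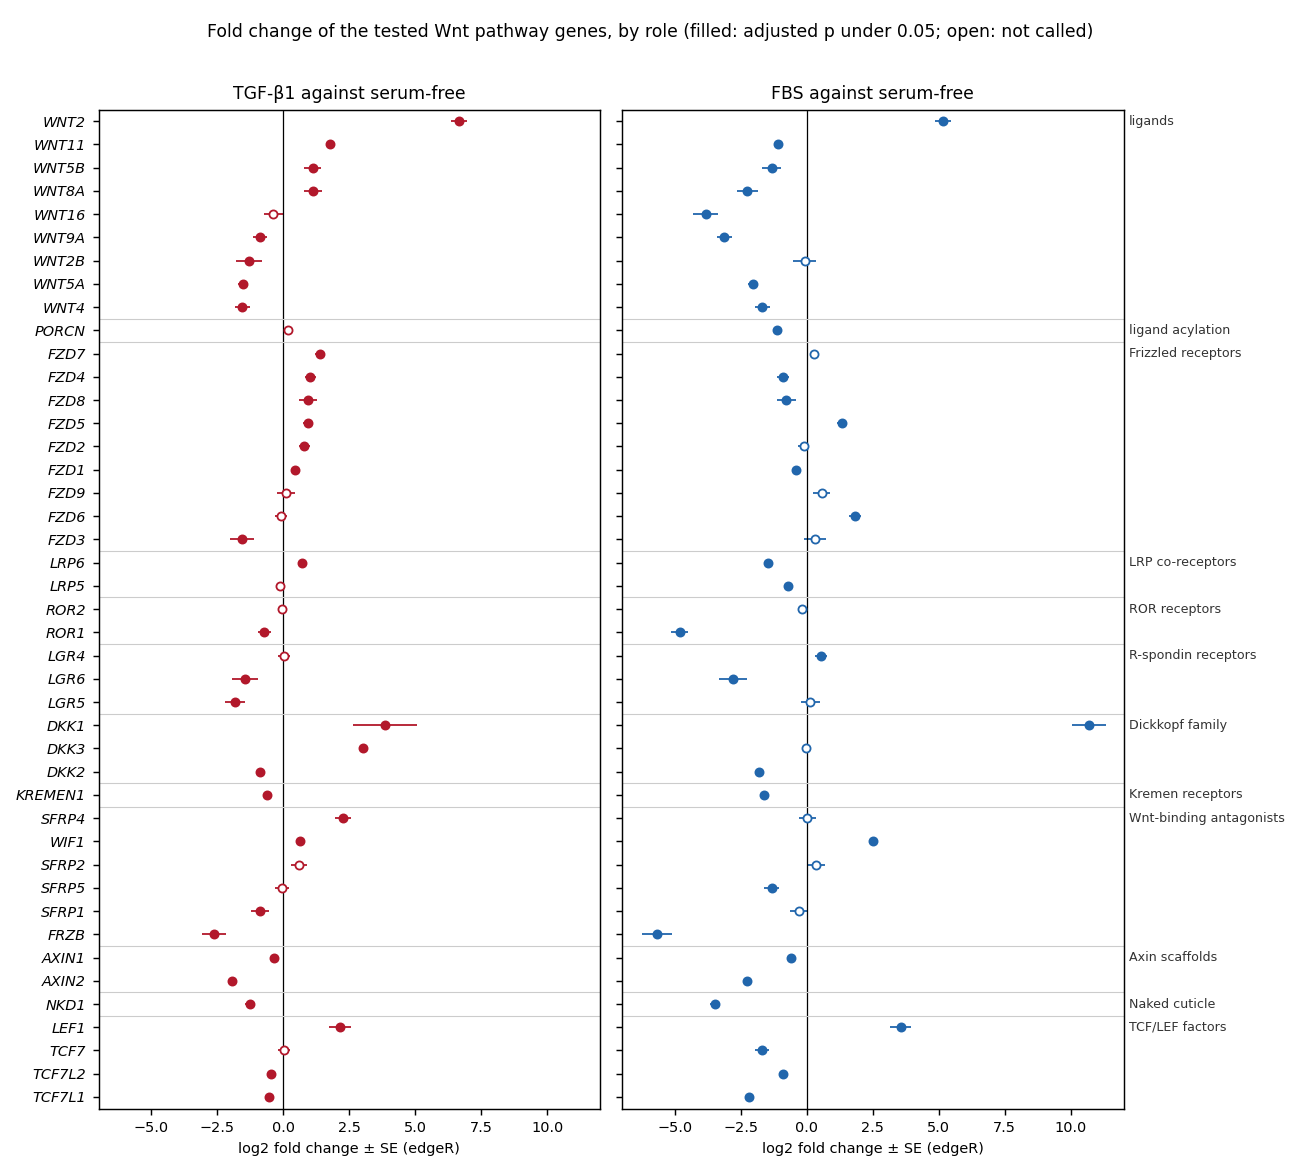
Log2 fold change (x axis, with SE bars, edgeR) of the 43 tested Wnt pathway genes, grouped by role from ligands at the top to TCF/LEF factors at the bottom, for TGF-β1 (left) and FBS (right) against the same 8 serum-free libraries; filled points have an adjusted p under 0.05. WNT2 lies far to the right in both panels (6.67 and 5.16), and 25 of the FBS points are filled and left of 0, against 17 of the TGF-β1 points; the DKK1 points are fitted values against 0 counts.

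In the direct comparison of the treatments, the genes with the largest excess in TGF-β1 cells were ROR1 at 4.08 (SE 0.32, adjusted p = 9.28e-12), WNT16 at 3.46 (SE 0.46, adjusted p = 2.09e-07), WNT8A at 3.37 (SE 0.40, adjusted p = 2.50e-08), and FRZB and DKK3 at 3.05 and 3.05 on the log2 scale. WNT11 followed at 2.88 (SE 0.13, adjusted p = 1.49e-16), then WNT5B at 2.45 (SE 0.35, adjusted p = 5.66e-07) and WNT9A at 2.26 (SE 0.28, adjusted p = 7.42e-08). Genes with the largest excess in FBS cells were DKK1, then LGR5 at -1.98 (SE 0.39, adjusted p = 5.94e-05), FZD6 at -1.92 (SE 0.22, adjusted p = 1.47e-08), WIF1 at -1.89 (SE 0.12, adjusted p = 2.06e-13) and FZD3 at -1.88 (SE 0.45, adjusted p = 0.000602). LEF1 followed at -1.40 (SE 0.34, adjusted p = 0.000758), which did not pass within set 2 (adjusted p = 0.0569). LGR4 was lower with TGF-β1, at -0.52 (SE 0.22, adjusted p = 0.0385), a difference seen in set 2 (0.094 in set 1 and -1.38 in set 2; set term adjusted p = 1.45e-05). Counted by role, 7 of 9 ligands were higher with TGF-β1 than with FBS and 1 lower, as were 5 of 9 Frizzled genes with 2 lower. Both LRP genes were higher, and 3 of the 4 TCF and LEF genes with 1 lower, beside 36.9% higher and 36.4% lower among all genes.

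**Figure D4:**
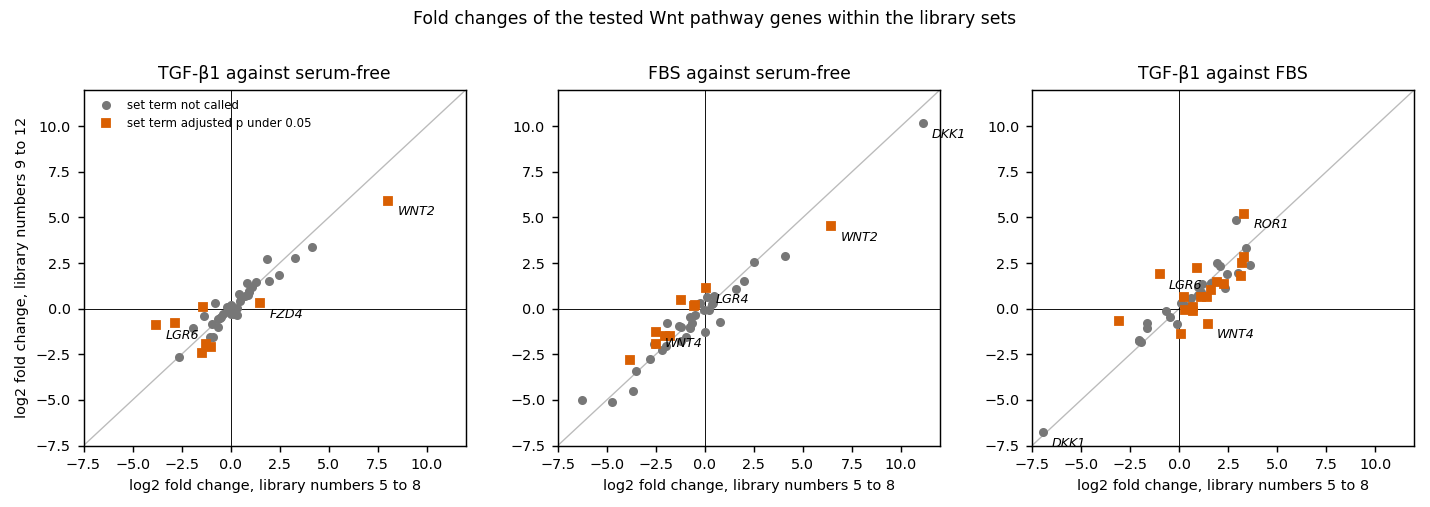
Log2 fold change of the 43 tested Wnt pathway genes in library numbers 5 to 8 (x axis) against 9 to 12 (y axis), each set fitted alone, for TGF-β1 against serum-free, FBS against serum-free and TGF-β1 against FBS from left to right; orange squares mark a set-by-treatment adjusted p under 0.05, and the diagonal marks equal values. Orange points number 8, 10 and 18, and WNT4 changes sign between the sets in the right panel (1.48 in set 1 and -0.82 in set 2).

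How far the sets of libraries differed in a treatment effect was tested for every gene. The set-by-treatment term passed for 8 of the 43 Wnt genes with TGF-β1, 10 with FBS and 18 between the treatments, against 10.3%, 22.4% and 23.9% of all genes. Between TGF-β1 and FBS the largest such differences among genes that passed were those of LGR6 and WNT4, which changed sign as given above, and of LGR5 and ROR1. LGR5 was at -3.07 in set 1 and -0.70 in set 2 (adjusted p = 0.0669 in set 2), and ROR1 at 3.33 in set 1 and 5.20 in set 2, as log2 fold changes. The size also differed for WNT9A, at 3.14 in set 1 and 1.81 in set 2, and for FZD4, at 2.29 in set 1 and 1.33 in set 2. AXIN2 was at 0.71 in set 1 and -0.14 in set 2, with adjusted p-values of 0.000865 and 0.346 within the sets. What the sets differ in beyond the library number is not given in the labels.

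Other genes of the pathway were counted from lists drawn from general knowledge of the pathway. Unless stated otherwise, the genes named are those with the largest changes in each comparison. The shares of all genes to read the counts against were 31.2% higher and 33.1% lower with TGF-β1, 39.5% and 40.5% with FBS, and 36.9% and 36.4% for TGF-β1 against FBS, or 64.3%, 80.0% and 73.3% called in all. Of 18 tested genes for Wnt secretion and modulation at the cell surface, 13 rose and 4 fell with TGF-β1 (median log2 fold change 0.91), 9 rose and 6 fell with FBS (median 0.53), and 11 were higher and 5 lower with TGF-β1 than with FBS (median 0.46). The called genes were thus 17, 15 and 16 of 18. APCDD1, a membrane protein that inhibits Wnt signals, averaged 51.7 ± 12.9 CPM with TGF-β1, 1.62 ± 0.841 CPM with FBS and 499.5 ± 74.9 CPM in serum-free medium (SD, n = 8 each). It had the largest fall of the list, at -3.27 (SE 0.19, adjusted p = 5.57e-14) with TGF-β1 and -8.29 (SE 0.25, adjusted p = 2.07e-20) with FBS, and was lower within each set (-3.19 in set 1 and -3.38 in set 2 with TGF-β1; -9.01 in set 1 and -7.67 in set 2 with FBS). TPBG, a membrane glycoprotein that blocks the LRP6 signal in zebrafish, averaged 7.19 ± 1.38 CPM with TGF-β1, 2.55 ± 0.797 CPM with FBS and 0.390 ± 0.195 CPM in serum-free medium, with changes of 4.18 (SE 0.27, adjusted p = 3.32e-13) with TGF-β1 and 2.69 (SE 0.27, adjusted p = 7.22e-10) with FBS. PTK7, a co-receptor of planar polarity, averaged 459.9 ± 70.1 CPM with TGF-β1, 95.7 ± 10.8 CPM with FBS and 54.1 ± 11.2 CPM in serum-free medium. It changed by 3.09 (SE 0.12, adjusted p = 3.00e-17) with TGF-β1 and 0.82 (SE 0.12, adjusted p = 3.78e-07) with FBS. GPC4, a glypican, averaged 584 ± 65.4 CPM with TGF-β1, 95.4 ± 5.39 CPM with FBS and 226 ± 22.4 CPM in serum-free medium, with changes of 1.37 (SE 0.076, adjusted p = 1.82e-14) with TGF-β1 and -1.25 (SE 0.076, adjusted p = 3.66e-14) with FBS. The glypican GPC6 averaged 6.19 ± 3.00 CPM with TGF-β1, 26.9 ± 6.57 CPM with FBS and 1.57 ± 0.697 CPM in serum-free medium, and SULF2, which trims heparan sulfate, averaged 259.5 ± 36.6 CPM with TGF-β1, 159.6 ± 43.0 CPM with FBS and 31.9 ± 11.9 CPM in serum-free medium. NDP, the gene of norrin, a ligand of FZD4, averaged 0.360 ± 0.122 CPM with TGF-β1, 2.28 ± 0.487 CPM with FBS and 0.104 ± 0.0755 CPM in serum-free medium, with changes of 1.68 (SE 0.37, adjusted p = 0.000328) with TGF-β1 and 4.33 (SE 0.32, adjusted p = 2.39e-12) with FBS. WLS, the carrier that brings Wnt proteins to the cell surface, was named after its values were seen. It averaged 299 ± 15.4 CPM with TGF-β1, 217 ± 13.0 CPM with FBS and 350.3 ± 55.0 CPM in serum-free medium, with changes of -0.23 (SE 0.080, adjusted p = 0.0145) with TGF-β1 and -0.69 (SE 0.080, adjusted p = 1.29e-08) with FBS.

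Of 27 tested genes of the destruction complex and the nuclear partners of β-catenin, 12 rose and 5 fell with TGF-β1 (median 0.22), 7 rose and 13 fell with FBS (median -0.24), and 18 were higher and 4 lower with TGF-β1 than with FBS (median 0.55). The called genes were 17, 20 and 22 of 27, beside 64.3%, 80.0% and 73.3% of all genes. DACT1, a Dishevelled-binding protein, averaged 99.6 ± 11.8 CPM with TGF-β1, 16.6 ± 0.650 CPM with FBS and 11.2 ± 2.34 CPM in serum-free medium, with changes of 3.16 (SE 0.11, adjusted p = 1.19e-18) with TGF-β1 and 0.57 (SE 0.10, adjusted p = 1.33e-05) with FBS. AMER1, which helps the destruction complex at the membrane, averaged 19.8 ± 2.67 CPM with TGF-β1, 10.2 ± 2.51 CPM with FBS and 57.2 ± 7.63 CPM in serum-free medium, with changes of -1.53 (SE 0.13, adjusted p = 1.52e-10) with TGF-β1 and -2.48 (SE 0.14, adjusted p = 5.21e-15) with FBS. CXXC4, a Dishevelled inhibitor, averaged 2.81 ± 1.27 CPM with TGF-β1, 0.292 ± 0.109 CPM with FBS and 5.05 ± 2.63 CPM in serum-free medium, and its largest change was -4.09 (SE 0.37, adjusted p = 1.27e-10) with FBS. PYGO1, a partner of β-catenin in the nucleus, averaged 50.9 ± 6.45 CPM with TGF-β1, 23.7 ± 5.03 CPM with FBS and 73.4 ± 11.7 CPM in serum-free medium, with -1.63 (SE 0.12, adjusted p = 2.92e-12) with FBS. The kinase genes GSK3B and CSNK1G1 changed with TGF-β1 by 0.85 (SE 0.12, adjusted p = 1.28e-06) and 0.90 (SE 0.13, adjusted p = 9.21e-07). BTRC, which marks β-catenin for degradation, changed by -1.60 (SE 0.074, adjusted p = 1.15e-16) with FBS, and DVL3, a Dishevelled gene, differed between TGF-β1 and FBS by 1.07 (SE 0.072, adjusted p = 4.89e-13). CTNNB1, β-catenin itself, was also named after its values were seen. It averaged 616 ± 23.4 CPM with TGF-β1, 355 ± 22.9 CPM with FBS and 491 ± 66.8 CPM in serum-free medium, with changes of 0.33 (SE 0.074, adjusted p = 0.000438) with TGF-β1 and -0.47 (SE 0.074, adjusted p = 2.55e-06) with FBS.

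Of 30 tested genes of the planar polarity and calcium branches, 8 rose and 9 fell with TGF-β1 (median 0.047), 12 rose and 16 fell with FBS (median -0.44), and 14 were higher and 9 lower with TGF-β1 than with FBS (median 0.16). The called genes were 17, 28 and 23 of 30, beside 64.3%, 80.0% and 73.3% of all genes. The genes with the largest changes were mostly NFAT factors, which respond to calcium, and polarity genes. NFATC2 averaged 9.41 ± 2.11 CPM with TGF-β1, 1.67 ± 0.598 CPM with FBS and 39.3 ± 4.13 CPM in serum-free medium, with changes of -2.06 (SE 0.16, adjusted p = 1.57e-11) with TGF-β1 and -4.55 (SE 0.18, adjusted p = 6.92e-18) with FBS. NFATC4 averaged 148 ± 14.6 CPM with TGF-β1, 24.7 ± 10.9 CPM with FBS and 169.8 ± 19.9 CPM in serum-free medium, and changed by -2.79 (SE 0.18, adjusted p = 2.05e-13) with FBS. NFATC1 changed by -2.81 (SE 0.14, adjusted p = 6.03e-16) with FBS. CELSR1 and CELSR2, cadherins of planar polarity, differed between TGF-β1 and FBS by 2.72 (SE 0.26, adjusted p = 4.13e-10) and 2.45 (SE 0.25, adjusted p = 1.81e-09). With TGF-β1, DAAM2, PRICKLE2 and RHOU, which also act in this branch, changed by -1.25, -1.20 and -1.18 on the log2 scale.

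Of 29 tested genes known as β-catenin targets in other settings, 18 rose and 8 fell with TGF-β1 (median 1.10), 14 rose and 7 fell with FBS (median 0.49), and 16 were higher and 9 lower with TGF-β1 than with FBS (median 0.56). The called genes were 26, 21 and 25 of 29, beside 64.3%, 80.0% and 73.3% of all genes. Many of them are also induced by other signals. APCDD1, RNF43 and ZNRF3 are counted both here and among the genes for secretion and surface modulation. APCDD1 fell, by -3.27 with TGF-β1 and -8.29 with FBS, while RNF43 rose, by 2.98 with TGF-β1 and 2.16 with FBS. In the edgeR test ZNRF3 changed by 0.35 (adjusted p = 0.0329) with TGF-β1 and 0.30 (adjusted p = 0.0536) with FBS, which did not pass. RNF43 and ZNRF3 are named as genes of both lists, and are not among the largest changes. WISP1, a secreted matricellular protein, averaged 105 CPM with TGF-β1, with changes of 3.54 (SE 0.17, adjusted p = 1.67e-15) with TGF-β1 and -0.011 (SE 0.16, adjusted p = 0.954) with FBS. SOX9, a transcription factor of cartilage, averaged 116 ± 15.8 CPM with TGF-β1, 27.1 ± 7.58 CPM with FBS and 11.8 ± 2.69 CPM in serum-free medium, with changes of 3.30 (SE 0.16, adjusted p = 1.93e-15) with TGF-β1 and 1.20 (SE 0.15, adjusted p = 8.60e-08) with FBS. MMP7, a secreted protease, averaged 5.14 ± 3.75 CPM with TGF-β1, 0.208 ± 0.127 CPM with FBS and 0.0130 ± 0.0368 CPM in serum-free medium, and FST, an activin-binding protein, averaged 10.1 ± 4.41 CPM with TGF-β1, 1.39 ± 0.344 CPM with FBS and 0.791 ± 0.493 CPM in serum-free medium. The change of FST with TGF-β1 was 3.68 (SE 0.31, adjusted p = 7.69e-11), and no fold is given for MMP7, which was near 0 in serum-free libraries. BIRC5, a gene of dividing cells, averaged 0.162 ± 0.130 CPM with TGF-β1, 10.5 ± 3.53 CPM with FBS and 0.0999 ± 0.124 CPM in serum-free medium, with a change of 6.61 (SE 0.43, adjusted p = 1.33e-13) with FBS. NOV, a matricellular protein, changed by 5.99 (SE 0.45, adjusted p = 3.12e-12) with FBS. FGF18, a growth factor, averaged 0.790 ± 0.314 CPM with TGF-β1, 0.0174 ± 0.0339 CPM with FBS and 2.13 ± 0.543 CPM in serum-free medium, and no fold is given against its near-0 level with FBS. AXIN2, NKD1 and LEF1, which Wnt signals are also known to induce, changed by -1.96, -1.27 and 2.15 with TGF-β1 and by -2.25, -3.47 and 3.55 with FBS, so LEF1 and the other pair moved in opposite directions.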

How the data were processed

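Gene expression was measured by bulk RNA-seq of total RNA in 24 libraries. The authors deposited a table of whole-number counts per gene and a table of FPKM per gene, with gene symbols, coordinates and lengths, per the file headers. The sources used here do not give the aligner, counter, genome build, annotation or use of strand. Reads without molecular identifiers are not independent molecules. A short gene model raises the FPKM of a gene.

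Library columns were matched to conditions by the library names in the labels. Genes were filtered with filterByExpr, which kept 13308 genes, scaled by TMM, and fitted with edgeR 4.0.16 in R 4.3.3 (quasi-likelihood F-test, all 24 libraries and 3 conditions in one fit). P-values were adjusted by the Benjamini-Hochberg method over all genes tested, and a change was called at an adjusted p under 0.05. SE was the log2 fold change divided by the square root of F. CPM used TMM library sizes, and levels of different genes were compared on deposited FPKM only. Alternatives were a replicate block, library set as a covariate, each set alone, 2-condition fits, no filter, a filter of 1 CPM in 8 libraries, total library size, the FBS libraries without replicates 5 and 6, DESeq2 1.42.0, and limma 3.58.1 on log2(FPKM + 0.1). The main fit was also run on simulated data, for TGF-β1 against serum-free medium only. The simulated libraries were independent and had no sets, so they cannot show how the p-values behave with the sets seen here.

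Replicate numbers are shared by the conditions in the labels. Deviations from the condition means correlated between same-numbered libraries in all 8 pairs of each comparison, at 0.177 to 0.362 for TGF-β1 against serum-free medium, 0.115 to 0.429 for FBS against serum-free medium and 0.103 to 0.332 for TGF-β1 against FBS. Libraries of the same set may also correlate in this way, so these values cannot tell pairing by number from a shared set. The labels do not state a pairing. The main fit used no block, so its SE and adjusted p-values are unpaired. Replicate number was a block only in an alternative fit, and the blocked value is given where it changed a call.

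The Wnt genes, the pathway lists and the marker lists were chosen with earlier results of these data known. Genes described in full were WNT2, DKK1, up to 8 called genes per direction and comparison with the largest change (higher condition averaging 1 CPM or more), and the most abundant genes that did not pass; other genes are given more briefly. From each pathway list the 4 largest called changes of each comparison were named, and WLS and CTNNB1 were added after their values were seen. RNF43 and ZNRF3 were named as genes that lie in more than 1 list. Figures were drawn with matplotlib 3.10.9.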

Additional observations from a re-analysis of the deposited data

Results flagged for a closer look

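In 7 of the 129 groups of 8 libraries tested (43 genes in 3 conditions, 5.43%), 1 library lay apart from the rest by Dixon's ratio of the gap to the range on the log2 scale (above the 95% critical value for 8 samples). Chance flags about 1 in 20 groups. In TGF-β1 libraries SFRP2 was lowest in replicate 3 (0.345 CPM, next 1.46 CPM, ratio 0.658), and DKK1 was highest in replicate 4 (0.438 CPM, next 0.143 CPM, ratio 0.6). In FBS libraries WNT11 was lowest in replicate 2 (3.58 CPM, next 4.63 CPM, ratio 0.626), and FZD4 was lowest in replicate 5 (2.47 CPM, next 4.07 CPM, ratio 0.586). In serum-free libraries FRZB was lowest in replicate 7 (0.618 CPM, next 2.27 CPM, ratio 0.587). PORCN was lowest in serum-free replicate 1 (9.48 CPM, next 14.4 CPM, ratio 0.554), and TCF7L1 was highest in serum-free replicate 4 (62.8 CPM, next 54.9 CPM, ratio 0.576).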

How the results depend on the processing

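Over the alternatives that kept the gene, called Wnt genes kept direction and side of the threshold in 1059 values. They lost the call in 27 and turned sign in 4. Genes that did not pass stayed so in 253, gained a call in 26 and turned sign in 35. Values of genes dropped by the filter of 1 CPM in 8 libraries or in the 2-condition fits are not counted. That filter left 95 values of called genes, where DESeq2 had 100. A 2-fold minimum left 10 Wnt genes higher with TGF-β1 than in serum-free medium and 9 lower. Among all genes it left 1445 higher and 2025 lower in that comparison, 2971 and 3217 for FBS against serum-free medium, and 2468 and 2338 for TGF-β1 against FBS. Total library size left 3131 genes higher with TGF-β1 than with FBS, against 4917 with TMM. Every other count stayed within 1.5 times its value. The replicate block changed the calls of FZD7, AXIN1, FZD5 and LGR6 given with those genes, and no other call. With total library size the sign of the log2 fold change turned to LGR4 -0.12, TCF7 -0.12 and FZD9 -0.040 for TGF-β1 against serum-free medium, and DKK3 0.20, FZD2 0.12, ROR2 0.070 and WNT2B 0.16 for FBS against serum-free medium, and AXIN1 -0.16, ROR2 -0.27, AXIN2 -0.11, WNT4 -0.27 and SFRP2 -0.16 for TGF-β1 against FBS. Within set 1 alone the sign of the log2 fold change turned to FZD6 0.038 and SFRP5 0.21 for TGF-β1 against serum-free medium, and FZD8 0.027, SFRP4 -0.25 and WNT2B 0.77 for FBS against serum-free medium, and LGR4 0.094 and LGR6 -0.98 for TGF-β1 against FBS. Within set 2 alone the sign of the log2 fold change turned to ROR2 0.082, LGR4 -0.26, ROR1 0.10, TCF7 -0.33 and WNT16 0.33 for TGF-β1 against serum-free medium, and FZD2 0.13, ROR2 0.18, LGR5 -0.080 and SFRP1 0.46 for FBS against serum-free medium, and ROR2 -0.093, AXIN2 -0.14 and WNT4 -0.82 for TGF-β1 against FBS. With the replicate block the sign of the log2 fold change turned to LGR4 -0.011 for TGF-β1 against serum-free medium, and WNT2B 0.063 for FBS against serum-free medium. With limma on FPKM the sign of the log2 fold change turned to LGR4 -0.044 for TGF-β1 against serum-free medium, and WNT2B 0.0077 for FBS against serum-free medium. With library set as a covariate the sign of the log2 fold change turned to LGR4 -0.0095 for TGF-β1 against serum-free medium. Without a filter the sign of the log2 fold change turned to DKK3 0.012 for FBS against serum-free medium. With the stricter filter the sign of the log2 fold change turned to SFRP4 -0.0069 for FBS against serum-free medium. Without FBS replicates 5 and 6 the sign of the log2 fold change turned to WNT2B 0.021 for FBS against serum-free medium. The cause was not tested. Genes with few counts (13 of the Wnt genes with a count) could not be tested at this depth.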
